A study of Mus musculus with 6 samples.

Results

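Germinal centre (GC) B cells of deposited cluster 5 at day 14 were 1212 of 19757 cells of the day 14 table and of 38651 cells in all 6 libraries. The cells were chosen by the cluster number in the deposited cell table alone, and each value below sets them beside the other day 14 cells of the same library. Both day 14 libraries were made from spleens of wild type adult mice that had received an NP-haptenated antigen with alum as adjuvant by intraperitoneal injection. The sort took B220+ CD95hi GL7hi IgD- cells, and the RNA was counted with 5-prime droplet chemistry, in which each unique molecular identifier (UMI) stands for 1 captured transcript. The labels do not say that the 2 libraries came from separate animals, nor whether animals were pooled, so the spread given here is between libraries.

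In a germinal centre, B cells divide and mutate their antibody genes in the dark zone (DZ) and compete for antigen and T cell help in the light zone (LZ). Signals through CD40 switch on NF-kB. Together with the antigen receptor they also switch on the transcription factor MYC, in the minority of light zone cells that receive enough help. MYC with its partner MAX binds E-boxes and drives ribosome production, metabolism and cell growth ahead of a return to the dark zone, whereas MXD proteins compete for MAX and oppose it.

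Cluster 5 held 522 of 9109 cells in library 1, or 5.73% with an exact 95% binomial interval of 5.26 to 6.23%. It held 690 of 10648 cells in library 2, or 6.48% with an interval of 6.02 to 6.96%. These intervals cover counting error only. Among the cells with the deposited zone call LZ, cluster 5 made up 11.9% and 13.9% in libraries 1 and 2. The call itself was LZ for 80.5% and 81.9% of cluster 5 cells, against 36.1% and 35.1% of the other cells. Phase S was called in 44.3% and 43.9% of cluster 5 cells, against 26.3% and 27.1% of the other cells. Phase G2M was called in 14.6% and 14.2%, against 31.4% and 31.7%, and phase G1 in 41.2% and 41.9%, against 42.3% and 41.1%. Cluster 5 was thus richer in LZ and S calls and poorer in G2M calls in both libraries.

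Cluster 5 cells were also deeper, with median UMIs of 4755 and 4377.5 per cell, against 3339 and 3106 in the other cells. They had a median of 1930 and 1835 genes, against 1502 and 1425. The mitochondrial share was close, at 7.33% and 7.602% against 7.71% and 8.15%. The summed counts behind the values below were 2580642 and 3276854 UMIs in cluster 5, against 33056491 and 36562191 in the other cells. The table holds cells of 500 to 9998 UMIs, so cells above that ceiling were not analysed here. With every cell thinned to 1000 UMIs, the genes higher in cluster 5 by the rule of the next paragraph numbered 722 and the genes lower in cluster 5 numbered 592, beside 740 (12.2% of 6069 genes) and 609 (10.0%) at full depth. The libraries shared 135 cell barcodes.

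The label of the cells as MYC-high and light zone was set against their markers. All 5 marker genes named for this cluster, Ccnd2, Srm, Batf, Nfkbid and Gnl3, were higher in cluster 5 in both libraries, and so was Myc. Counts were summed per library and scaled to the same total (CPM), and a gene was called higher or lower at a log2 ratio of at least 0.5 in both libraries. Whether the cells had been selected was not measured. Since a cluster of cells by expression is set by its genes, the differences describe the cells and are no test of them. With 2 libraries a sign-flip test could not go below 0.5, so no p-value is given.

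Promoter sequences are shown because an E-box is the site through which MYC acts, and because 12 of the 15 leading higher genes had a RefSeq window from 250 bases before to 50 bases after the start site (build GRCm38.p6). The letters CACGTG, the same on both strands, were in the windows of Pus7, Trmt61a, Mettl1 and Cd3eap. Each is printed 5′ to 3′ on the strand of the gene, with the E-box in capitals, for Pus7 (chr5:23783666-23783695, minus strand), Trmt61a (chr12:111678118-111678147, plus strand), Mettl1 (chr10:127041950-127041979, plus strand) and Cd3eap (chr7:19359446-19359475 and, upstream of the start, chr7:19359684-19359713, minus strand).
Pus7: ggcgcagcgccgCACGTGtgcgagcccggc
Trmt61a: ccgccgtggagcCACGTGtggagccgggag
Mettl1: agctcggctctcCACGTGgactgcgtggca
Cd3eap, after the start: accccttggatcCACGTGgtgggcagcgtt
Cd3eap, before the start: gttggaagaaacCACGTGagcaaagttgtc
In Pus7, Trmt61a, Mettl1 and the downstream Cd3eap site, the motif began at bases 29, 26, 31 and 21 from the start site.

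CACGTG was in at least 1 window of 8.09% of the 27025 genes of the promoter table. Of genes with a window it was in 21.5% of the 594 called higher, in 13.0% of the 4807 measured and in 11.2% of the 438 called lower. Among the nucleolar and ribosome biogenesis genes it was in 6 of 31 genes. Only 79.2% of the measured and 71.9% of the lower-called genes had a window, beside 80.3% of the higher-called, and since under 80% counts as too few, a comparison of these shares is void. The window of Nfkbid held matches to the kappaB consensus, the site of NF-kB, printed here in capitals (chr7:30422165-30422249, plus strand), the first of them 226 bases before a start site. That start and the one of Mettl1 are RefSeq starts that lie inside the gene as GENCODE draws it.
Nfkbid: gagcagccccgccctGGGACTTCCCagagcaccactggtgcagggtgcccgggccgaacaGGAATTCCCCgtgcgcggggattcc
That consensus, read on both strands, was in 9.55% of the genes of the promoter table and in 9 of the 18 genes of the CD40 and NF-kB list with a window. It was in 11.6% of the higher-called, 12.02% of the measured and 14.6% of the lower-called genes with a window, under the same limit on coverage. A match describes the letters, and binding was not measured.

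Across 6069 genes with a mean of at least 20 CPM over the 4 sums, 740 (12.2%) were higher in cluster 5 and 609 (10.0%) lower. At a log2 ratio of at least 1 in both libraries, 230 were higher and 126 lower. The median over all measured genes was 0.00. Ccnd2, encoding the G1 cyclin D2 that activates CDK4 and CDK6, had 157 and 186 CPM in cluster 5, against 14.5 and 14.2 CPM in the other cells of libraries 1 and 2. Its log2 ratio of 3.58 ± 0.19 (mean and SD, n = 2 libraries) was the largest of the measured genes by the smaller of its ratios. Srm, the spermidine synthase of polyamine production, had 228 and 221 CPM, against 35.4 and 38.6 CPM, a log2 ratio of 2.60 ± 0.12. Both genes were several-fold above the other cells in each library, a separation that follows from naming genes by large ratios in both libraries. In mm10 the markers and Myc lie at chr6:127125162-127152193 (Ccnd2), chr4:148591503-148594993 (Srm), chr12:85686669-85709087 (Batf), chr7:30421732-30428746 (Nfkbid), chr14:31012433-31019152 (Gnl3) and chr15:61985391-61990374 (Myc), by the GENCODE annotation.

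Batf, an AP-1 family transcription factor, had 131 and 143 CPM in cluster 5 and 22.7 and 23.9 CPM in the other cells, a log2 ratio of 2.56 ± 0.04. Nfkbid, the nuclear inhibitor protein IkBNS of the NF-kB system, had 274 and 242 CPM, against 50.1 and 44.9 CPM (2.44 ± 0.01). Gnl3, the nucleolar GTPase nucleostemin, had 437 and 406 CPM, against 81.6 and 79.2 CPM (2.39 ± 0.04). Myc had 104 and 108 CPM, against 19.1 and 20.8 CPM (2.41 ± 0.05). For each of these genes, named for a large ratio in both libraries, the ratio was many times its SD between libraries.

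Among the other leading higher genes, Polr1b, Cd3eap and Gnl3 belong to the nucleolus, the first pair as subunits of RNA polymerase I, and Polr1b had 39.9 and 47.9 CPM, against 7.05 and 7.79 CPM. Pus7, Trmt61a and Mettl1 modify RNA bases, and their log2 ratios were 2.56 ± 0.10, 2.38 ± 0.14 and 2.23 ± 0.09. Shmt1, the cytosolic serine hydroxymethyltransferase that feeds folate metabolism, had 58.9 and 61.6 CPM, against 12.3 and 12.6 CPM. Gcsh, a carrier protein of the mitochondrial glycine cleavage system, had 36.0 CPM in cluster 5 of both libraries, against 5.84 and 5.88 CPM. Bcl2a1d, of the antiapoptotic A1 family, had 64.3 and 65.3 CPM, against 11.6 and 12.2 CPM, but its near-identical copies make the split of reads within the family uncertain. Ifrd2 completed the 15 at 2.28 ± 0.09.

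**Figure D1:**
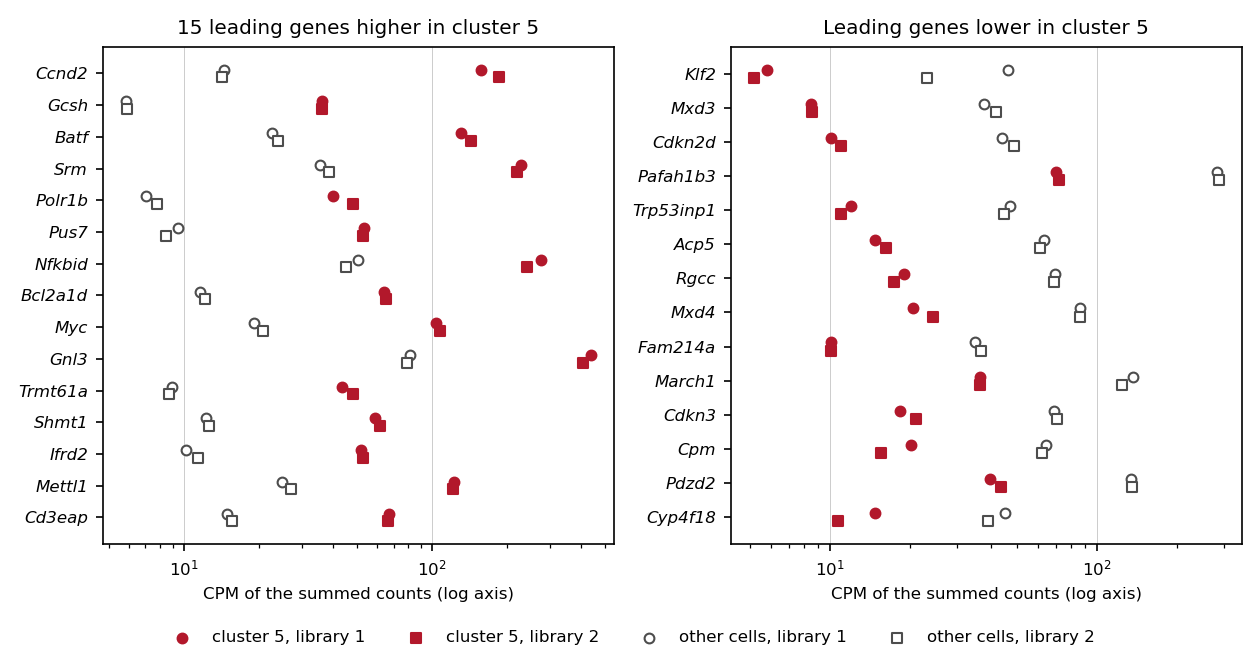
CPM of the summed counts (log axis) for the 15 leading higher genes and 14 of the 15 leading lower genes, in cluster 5 (filled) and the other day 14 cells (open) of library 1 (circles) and library 2 (squares). Ccnd2 stands at 157 and 186 CPM in cluster 5 and Klf2 at 5.81 and 5.19 CPM. The genes were chosen for large ratios in both libraries, so the separation of cluster 5 from the other cells follows from the choice.

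Among the leading lower genes, Mxd4 had 20.5 and 24.4 CPM in cluster 5, against 86.5 and 86.1 CPM in the other cells, and Mxd3 had 8.53 and 8.54 CPM, against 37.6 and 41.7 CPM. Both encode MAX partners that oppose MYC. Cdkn2d, an INK4 family inhibitor of CDK4 and CDK6, had 10.1 and 10.99 CPM, against 44.3 and 48.8 CPM. Klf2, a transcription factor of quiescence and lymphocyte trafficking, had 5.81 and 5.19 CPM, against 46.5 and 23.0 CPM. Its ratio of -2.58 ± 0.60 had the widest spread of the 30 leading genes. Klf2 was lower still within LZ-called cells, at -4.30 and -2.86. Against clusters 1 and 2 alone Klf2 lay under the minimum of 20 CPM, so no difference from them could be read.

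March1, a ubiquitin ligase that removes MHC class II and CD86 from the surface, had 36.4 and 36.6 CPM in cluster 5, against 136 and 124 CPM in the other cells. Pafah1b3, a catalytic subunit of platelet-activating factor acetylhydrolase, had 70.5 and 72.0 CPM, against 282 and 286 CPM. Further lower genes were Trp53inp1, Acp5, Rgcc, Fam214a, Cdkn3, Pdzd2, Cyp4f18 and Cpm, the last being carboxypeptidase M, with log2 ratios from -2.01 to -1.69. When all of cluster 5 was set only against LZ-called other cells, Mxd3 and Cdkn3 turned to 0.72 and 0.92. Both lay under the minimum of 20 CPM in those LZ-called cells (Cdkn3 at 10.5 and 10.2 CPM). The turn could therefore not be read as a difference.

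The MYC network list therefore did not move as 1 group. Of its 8 measured members Myc was higher and Mxd3 and Mxd4 lower, with a list median of 0.00. Max, the obligate partner, had 76.0 and 72.0 CPM, against 63.0 and 65.5 CPM (0.20 ± 0.10). Mnt, Mlx, Mlxip and Zbtb17 had ratios between -0.20 and 0.23.

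Genes for making ribosomes were the most uniform group. All 35 nucleolar and ribosome biogenesis genes were measured and all 35 were called higher, with a median log2 ratio of 1.44 and a range of 0.75 to 2.56. Ncl, nucleolin, had 2426 and 2379 CPM, against 930 and 962 CPM. Nolc1, a nucleolar chaperone of small nucleolar ribonucleoproteins, had 375 and 378 CPM, against 94.9 and 101 CPM. The ribonucleoprotein core genes Fbl, Nop56, Nop58, Dkc1 and Nhp2 had ratios of 1.30 to 1.53. Of the ribosomal protein genes themselves, 1 of 86 was called higher, Rpl7l1, and 0 lower.

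Protein synthesis genes were higher in part. Of 11 measured translation factors 9 were called higher (median 0.76), including Eif4a1, the cap-complex helicase, at 484 and 480 CPM, against 229 and 236 CPM. Of 20 aminoacyl tRNA synthetases 12 were called higher (median 0.67), with Tars at 1.01 and Wars at 1.02, while Vars stood at -0.02 and Qars at -0.15. Eif5a, the factor that carries the spermidine-derived residue hypusine, had 859 and 808 CPM, against 375 and 393 CPM. Within polyamine synthesis, Odc1, the ornithine decarboxylase, was at 0.84, Amd1, the S-adenosylmethionine decarboxylase, at 0.72, and Sms, spermine synthase, at 0.14. Sat1, which acetylates polyamines for export or breakdown, stood at -0.51 without meeting the rule in both libraries. Of the 10 measured polyamine genes 4 were called higher and 0 lower (median 0.47), the highest being the cluster marker Srm.

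Nucleotide and one-carbon genes followed, with 17 of 21 called higher and 0 lower (median 0.86). Cad and Ctps, which make pyrimidines, had ratios of 1.45 and 1.49. Gart, Atic and Ppat, of the purine route, had 1.44, 1.35 and 1.04. Gmps, Paics and Adss were among the 4 members not called, at 0.52, 0.35 and 0.35. Transport genes were split: Slc7a5, the large neutral amino acid carrier, had 69.4 and 82.4 CPM, against 32.2 and 31.9 CPM, and Tfrc, the transferrin receptor, had 70.5 and 72.3 CPM, against 23.4 and 24.2 CPM. Slc1a5, the glutamine carrier, stood at 0.00 and Slc3a2, the partner chain of Slc7a5, at 0.27. In all 5 of 9 measured transport genes were called higher and 0 lower.

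Glycolysis genes were called higher in 8 of 12 cases (median 0.64). Hk2, hexokinase 2, had 80.2 and 89.1 CPM, against 27.0 and 29.8 CPM, and Ldha, lactate dehydrogenase A, had 839 and 838 CPM, against 362 and 380 CPM. Gapdh stood at 0.16 and Gpi1 at 0.04. Nuclear genes of oxidative phosphorylation were called higher in 3 of 20 cases, with a median of 0.12, namely Atp5g1 (0.93), Cycs, cytochrome c (0.79), and Uqcrq (0.55). Mitochondrial import and ribosome genes were called higher in 10 of 14 cases (median 0.87), led by Timm8a1 (1.92), C1qbp (1.76) and Timm10 (1.70). Chaperones were higher in 13 of 18 cases (median 0.72), led by the mitochondrial Hspd1 (407 and 396 CPM, against 129 and 132 CPM) and Hspa9 (1.56). Hspa4 stood at 0.24.

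Cholesterol synthesis genes were higher in 5 of 12 cases (median 0.56), among them Idi1 (1.05) and Lss (0.83). Proteasome genes were higher in 3 of 18 cases (median 0.32), among them the activator subunit Psme3 at 1.06. This count and that of oxidative phosphorylation genes are near the 12.2% of all measured genes called higher. None of the 13 mTORC1 and growth signalling genes was called higher and 4 were called lower, namely Foxo1 at 138 and 139 CPM, against 235 and 237 CPM, Sesn1, Sesn3 and Akt1. Foxo1 encodes a transcription factor of the dark zone programme that growth signalling keeps out of the nucleus.

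**Figure D2:**
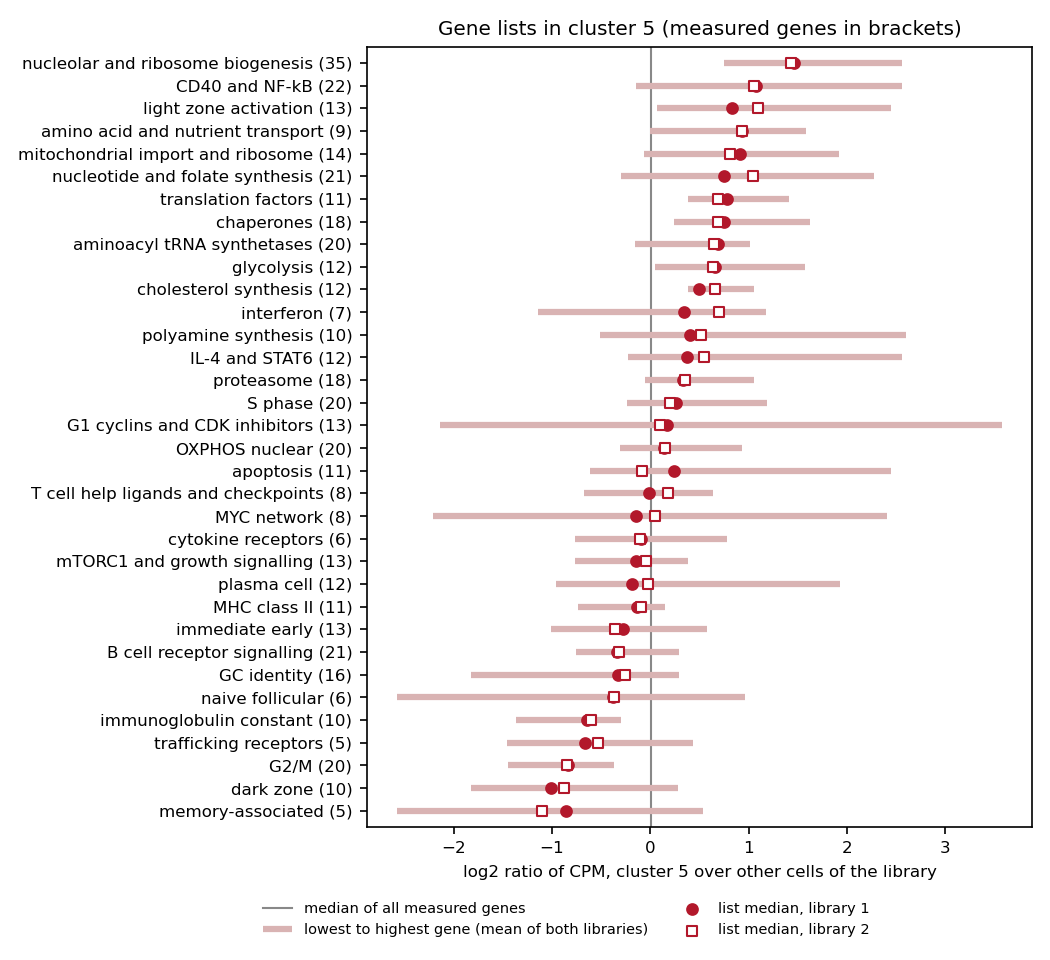
Median log2 ratio of cluster 5 over the other cells for the lists with at least 5 measured genes, in library 1 (filled circles) and library 2 (open squares), with bars from the lowest to the highest gene. The nucleolar list has the highest median (1.44) and its whole bar lies above the all-gene median of 0.00, while the memory-associated (-0.98), dark zone (-0.93) and G2/M (-0.86) lists lie lowest.

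Genes of the CD40 and NF-kB list, which holds parts of the pathway as well as its targets, were called higher in 16 of 22 cases and lower in 0 (median 1.06). The receptor Cd40 had 116 and 136 CPM, against 45.2 and 49.5 CPM. Of the NF-kB subunits, Nfkb2 (1.47), Relb (0.90) and Rel (0.55) were called higher, while Nfkb1 stood at 0.44 and Rela at 0.07. Its inhibitors were higher too, with Nfkbia at 677 and 697 CPM, against 239 and 242 CPM, Nfkbie at 1.46, Nfkbib at 1.11 and Tnfaip3 at 1.31. Irf4, which GC cells use at low dose and plasma cells at high dose, had 85.2 and 74.2 CPM, against 21.6 and 20.2 CPM. Map3k14, the kinase NIK, stood at -0.15.

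Light zone activation genes were called higher in 9 of 13 cases and lower in 0 (median 0.96). Cd83, the standard light zone surface marker, had 435 and 460 CPM, against 197 and 194 CPM, and Icam1, an adhesion molecule, had 190 and 205 CPM, against 79.4 and 87.1 CPM. Cd86, a costimulatory ligand, stood lower in the order at 0.56, and Cd72 (0.08) and Lmo2 (0.07) were near 0. Antigen receptor genes ran the other way: 0 of 21 were called higher and 4 lower (median -0.32), among them Cd79a, Cd79b and Malt1. MHC class II genes had a median of -0.12 against all other cells, -0.47 within LZ-called cells and -0.51 against cluster 1. Against all other cells 1 of 11 was called lower, near the 10.0% of all measured genes. It was H2-Ob, the inhibitory DO chain, at 187 and 184 CPM, against 316 and 301 CPM. Of 13 immediate early genes Fos, Dusp1, Btg2 and Zfp36 were called lower and 0 higher (median -0.32).

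IL-4 and STAT6 genes were called higher in 5 of 12 cases and lower in 0 against all other cells (median 0.46). The median was only 0.21 within LZ-called cells and -0.02 for all of cluster 5 against LZ-called other cells. The cluster marker Batf is in this list and in the CD40 and NF-kB list, with the largest ratio of each. Il4i1, an amino acid oxidase, had 229 and 259 CPM, against 62.9 and 64.4 CPM, and Fcer2a, the IgE receptor CD23, had 98.0 and 86.4 CPM, against 55.3 and 40.4 CPM. Il4ra itself stood at -0.12. Il21r, the receptor of interleukin 21, had 313 and 347 CPM, against 189 and 197 CPM, while Il17ra and Tgfbr1 were called lower. Within LZ-called cells neither Fcer2a (117.8 and 105.9 CPM, against 105.6 and 78.6 CPM) nor Il21r (344 and 389 CPM, against 278 and 303 CPM) met the rule.

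Cell cycle entry genes diverged against all other cells, with 4 of 13 called higher and 3 lower (median 0.20). Within LZ-called cells 5 of 11 were called higher and 0 lower (median 0.62), and within G1-called cells 3 of 11 higher and 3 lower. Against all other cells, Cdk4 (0.92), Cdk6 (1.04) and Cdc25a (0.57) were called higher beside Ccnd2. Ccnd3, the cyclin of dark zone division, stood at -0.38, and E2f2, Rbl1 and Cdkn2d were called lower. S phase genes had a median of 0.21. Of these, 2 of 20 were called higher, near the 12.2% of all measured genes, namely Uhrf1 (0.52) and Ung (1.18), the uracil glycosylase. Against all other cells, 15 of 20 G2/M genes were called lower (median -0.86), among them Cenpf at 107 and 108 CPM, against 288 and 298 CPM. Dark zone genes were called lower in 6 of 10 cases (median -0.93), with Cxcr4, the dark zone homing receptor, at 36.0 and 36.6 CPM, against 113 and 87.6 CPM. The shares of phase calls also differed between cluster 5 and the other cells, and values within each call are given further on.

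GC identity genes were called lower in 5 of 16 cases and higher in 0 (median -0.33). Bcl6, the master regulator, had 96.5 and 92.5 CPM, against 139 and 147 CPM, and Bach2, a repressor of plasma cell fate, had 158 and 154 CPM, against 373 and 359 CPM. Mef2b (0.04) and Irf8 (0.27) were not called. Plasma cell genes were mixed, with 2 of 12 called higher and 2 lower, beside 12.2% and 10.0% of all measured genes. Irf4 and Derl3 were the higher ones, and Jchain (184 and 186 CPM, against 365 and 352 CPM) and Mzb1 the lower ones. Prdm1, the plasma cell regulator, lay under the minimum of 20 CPM, at a mean of 14.6 CPM in cluster 5 and 7.80 CPM in the other cells. Of the 5 measured memory-associated genes 4 were called lower, namely Klf2, Nt5e, Vim and Bach2.

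Markers of other cell types were given as whole lists. Of 12 T cell genes 9 had under 1 CPM in both groups of cells and Cd3e had 0 UMIs in cluster 5. The list sum was 179 and 186 CPM in cluster 5 and 112 and 122 CPM in the other cells, nearly all of it Lck, which B cells also express. Myeloid genes summed to 115 and 96.4 CPM, against 183 and 145 CPM, and Cst3 gave 57.7 and 52.8 CPM of that in cluster 5. Stromal genes summed to 91.5 and 74.8 CPM, against 113 and 97.7 CPM, nearly all Cr2, which B cells carry. Erythroid genes summed to 130 and 121 CPM, against 151 and 148 CPM. The myeloid, stromal and erythroid sums were thus lower in cluster 5, and the T cell sum without Lck was near 0.

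Single cells were read at a common depth of 1000 UMIs, which left out 5 and 6 cluster 5 cells and 331 and 495 other cells. A Myc UMI was then seen in 9.28% and 10.5% of cluster 5 cells, against 1.83% and 1.93% of the other cells, and 0.559% and 0.751% in mitotic cluster 4, which stands as background. Unthinned, the shares were 27.6% and 29.1% of cluster 5 cells, against 5.66% and 5.88%. At least 1 of the 5 markers was seen in 61.5% and 62.4% of thinned cluster 5 cells, against 16.6% and 16.01%, and at least 2 in 24.2% and 23.0%, against 2.02% and 1.60%. At least 3 markers were seen in 5.80% and 5.26%, against 0.230% and 0.159%, and 38.5% and 37.6% of cluster 5 cells showed none at this depth. The 5 genes are the markers named for this cluster, so their higher shares in its cells follow from the choice.

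The 6 genes were then followed through all 11 clusters. Srm, Nfkbid, Gnl3 and Myc were highest in cluster 5 in both libraries. Ccnd2 and Batf were highest in cluster 5 in library 1, but in library 2 cluster 9 passed it. Cluster 9 held 143 cells and was led by the plasma cell genes Bhlha15, Fkbp11 and Sdc1. There Ccnd2 stood at 144 and 233 CPM and Batf at 36.0 and 149 CPM. Nfkbid was at 23.1 and 17.2 CPM in cluster 9, its lowest level of all clusters.

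**Figure D3:**
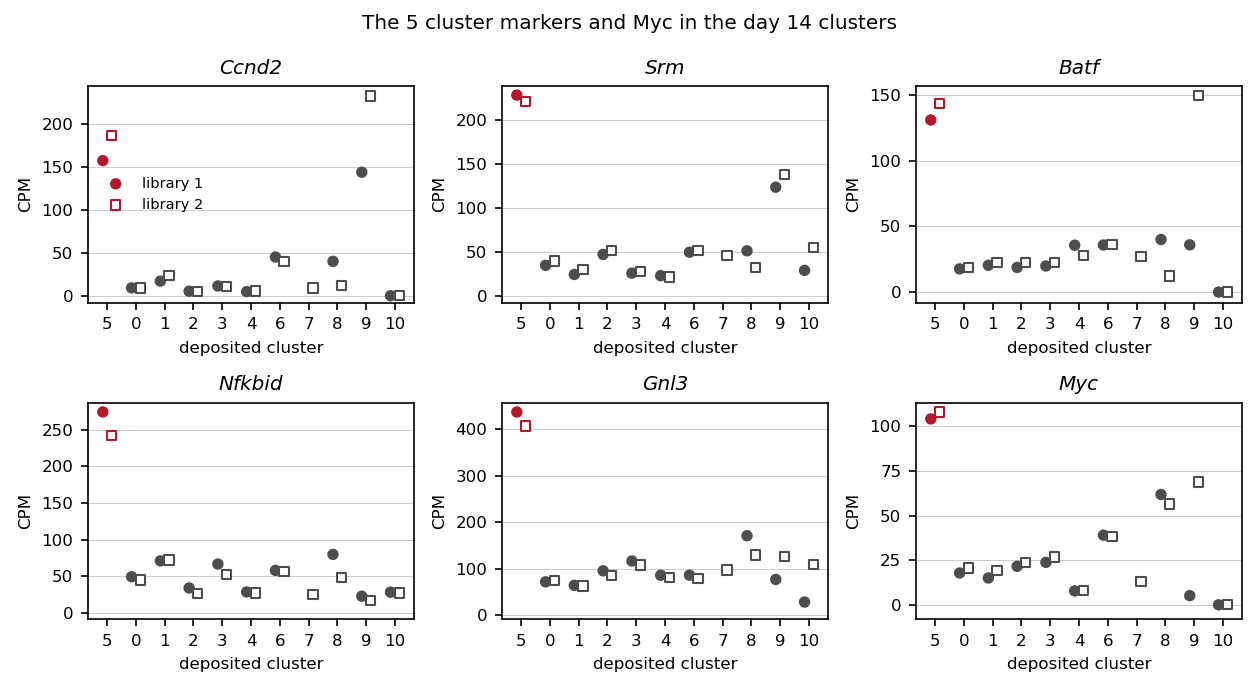
CPM of 5 markers and Myc in each day 14 cluster (cluster 5 first, in red), for library 1 (filled circles) and library 2 (open squares). Cluster 7 has cells in library 2 only. Nfkbid stands at 274 and 242 CPM in cluster 5 and is highest there, while cluster 9 reaches 233 CPM of Ccnd2 in library 2.

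By the correlation of log2(CPM + 1) across genes, cluster 2 was nearest to cluster 5, with Pearson r of 0.932 and 0.935 in libraries 1 and 2, a description over genes of the same libraries. Cluster 2 was called S phase in 74.4% and 73.3% of its cells. Cluster 1, the largest cluster with mostly LZ calls (68.6% in each library) and 93.1% and 93.4% G1 calls, had r of 0.890 and 0.893. Clusters 1 and 2 were chosen for the next values after the data were seen, since the rule of the highest LZ share picked the plasma-led cluster 9 (74.1%). Myc in cluster 1 was 15.04 and 19.1 CPM and in cluster 2 was 21.6 and 23.6 CPM, far under cluster 5 in each case. The nucleolar median of cluster 5 was 1.56 over cluster 1 and 1.23 over cluster 2. S phase genes had a median of 1.15 over cluster 1 and -0.62 over cluster 2, and CD40 and NF-kB genes 0.80 over cluster 1 and 1.36 over cluster 2.

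Within LZ-called cells, 910 of 6124 genes (14.9%) were higher in cluster 5 and 651 (10.6%) lower. There 34 of 35 nucleolar genes were called higher (median 1.40), and Myc had 123 and 126 CPM, against 26.9 and 30.2 CPM. G2/M genes were called higher in 14 of 15 measured cases (median 1.28), the opposite side from the comparison with all other cells, with Cenpf at 62.2 and 73.5 CPM, against 30.6 CPM in the other LZ-called cells of both libraries. Cd40 was at 134 and 156 CPM, against 66.2 and 77.7 CPM, and the light zone activation median was 0.50 in place of 0.96. IL-4 and STAT6 genes were called higher in 3 of 12 cases and lower in 3, and MHC class II genes lower in 5 of 11 cases and higher in 0.

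Within G1-called cells, 835 of 6058 genes (13.8%) were higher and 569 (9.39%) lower, and all 35 nucleolar genes were among the higher ones (median 1.55). Within S-called cells, 547 of 5964 genes (9.17%) were higher and 405 (6.79%) lower, with 34 of 35 nucleolar genes higher (median 1.19). Other lists had fewer calls there than against all other cells, with 4 of 12 glycolysis, 1 of 12 cholesterol synthesis and 6 of 11 translation factor genes called higher, and the oxidative phosphorylation median was -0.02. Within G2M-called cells, which rest on 76 and 98 cluster 5 cells, 825 of 5941 genes (13.9%) were higher and 709 (11.9%) lower, with all 35 nucleolar genes higher (median 1.64). The G2/M list had medians of 0.13, -0.20 and -0.46 within G1, S and G2M calls, against -0.86 over all cells. Myc ratios within G1, S and G2M calls were 2.73 and 2.85, 2.15 and 1.83, and 2.26 and 2.32 in libraries 1 and 2. These comparisons use subsets of the same cells, so their agreement is no independent support.

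**Figure D4:**
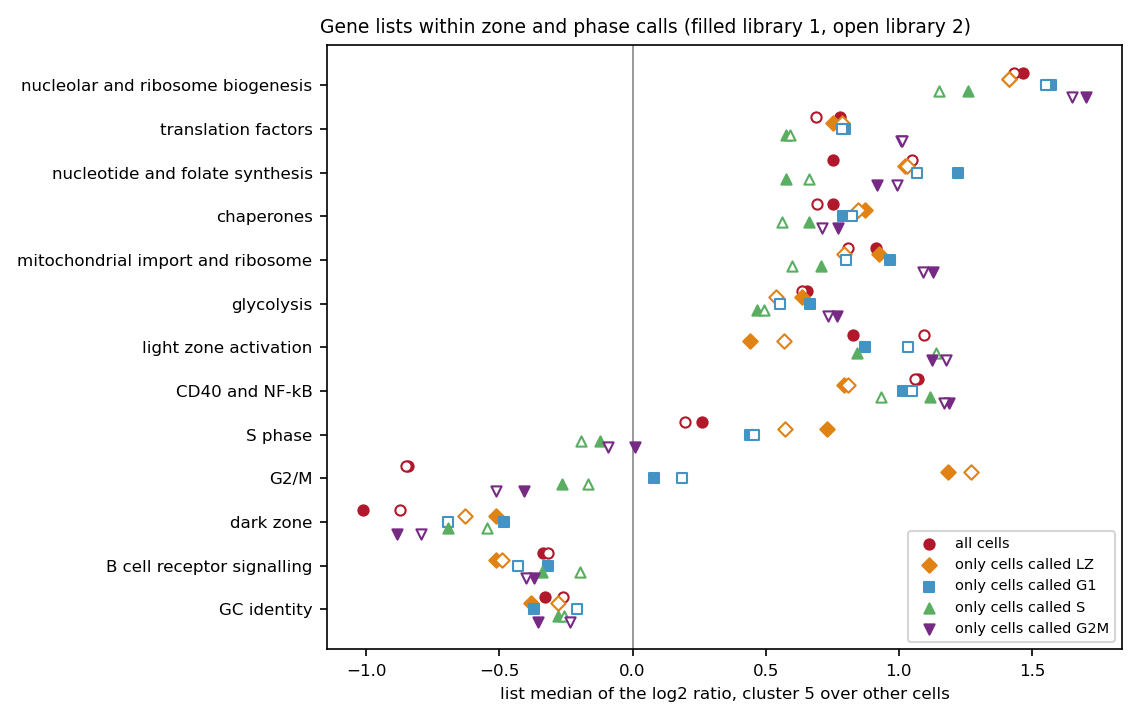
List medians of the log2 ratio of cluster 5 over other cells, for all cells and within LZ, G1, S and G2M calls, with filled symbols for library 1 and open symbols for library 2. The nucleolar points lie from 1.15 to 1.70, while the G2/M points lie at -0.84 and -0.85 over all cells and at 1.19 and 1.27 within LZ calls.

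Within cluster 5 itself, 102 and 124 cells carried the call DZ and 420 and 565 the call LZ. How the calls were made is not given in the sources used here, so genes that entered them cannot be told from the others. Of the 6069 genes, 191 (3.15%) were higher and 327 (5.39%) lower in DZ-called than in LZ-called cluster 5 cells. Myc had 47.1 and 49.2 CPM in DZ-called cells, against 123 and 126 CPM in LZ-called cells, and Nfkbid had 129 and 111 CPM, against 321 and 283 CPM. Batf had 75.4 and 55.6 CPM, against 149 and 171 CPM. The log2 ratios were -1.38 and -1.36 for Myc, -1.32 and -1.35 for Nfkbid and -0.98 and -1.62 for Batf, so all of these activation genes were lower in the DZ-called cells. Among the other cells the same ratios were -0.75 and -0.80 for Myc, -1.20 and -1.17 for Nfkbid and -0.41 and -0.76 for Batf.

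Growth genes differed less. Srm had 218 and 184 CPM in DZ-called and 231 and 232 CPM in LZ-called cluster 5 cells. Ncl had 2525 and 2292 CPM, against 2394 and 2406 CPM, and Ldha had 792 and 844 CPM, against 854 and 836 CPM. The CD40 and NF-kB median of DZ-called over LZ-called cells was -1.04 and -0.83, with 15 of 22 genes called lower, and the light zone activation median was -1.21 and -1.27. The nucleolar median was -0.10 and -0.22, with 1 of 35 called lower, and the all-gene median was -0.03 and -0.06. The G2/M median was 1.29 and 1.48, with 20 of 20 called higher. Among the other cells the medians were -0.67 and -0.61 for CD40 and NF-kB and -0.90 and -0.99 for light zone activation. There the nucleolar median was -0.19 and -0.17 and the G2/M median 3.01 and 3.16. The split between activation and growth lists was thus not particular to cluster 5. In the other DZ-called cells Srm was at 32.2 and 35.9 CPM and Myc at 15.9 and 17.4 CPM, under the DZ-called cluster 5 cells. Srm is a marker of the cluster and Myc one of its leading genes, so this gap follows from the choice of cells and genes.

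By phase, Nfkbid and Bcl2a1d were highest in the G1-called cells of cluster 5. Nfkbid had 189 and 139 CPM in S-called and 409 and 386 CPM in G1-called cells, and Bcl2a1d had 52.1 and 42.0 CPM, against 90.7 and 105 CPM. The CD40 and NF-kB median of S over G1 was -0.48 and -0.46 and the nucleolar one 0.09 and -0.12. Among the other cells the same medians were -0.46 and -0.47 and 0.19 and 0.17.

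Immunoglobulin transcripts were lower in cluster 5, with 0 of 34 measured genes called higher and 16 lower. Ighm had 1328 and 1018 CPM, against 2131 and 1744 CPM, and the lambda constant gene Iglc1 had 264 and 218 CPM, against 562 and 416 CPM. Chain calls per cell were added after the data were seen and needed at least 2 heavy chain or 3 light chain UMIs with 80% on 1 gene. Of cells with a heavy chain call, IgM made up 68.2% and 58.9% in cluster 5, against 76.2% and 70.1% of the other cells. IgG2c made up 2.82% (interval 1.36 to 5.12%) and 22.2% (18.3 to 26.5%) in cluster 5, against 1.93% and 10.3%. Lambda light chain was called in 14.2% and 8.73% of cluster 5 cells with a call, against 24.1% and 12.7% of the other cells and 30.1% and 17.9% of cluster 1. The isotype make-up thus differed between libraries, in cluster 5 and in the other cells. The lambda share of called cells was lower in cluster 5 than in the other cells of both libraries. A light chain call was made in 71.3% and 73.0% of cluster 5 cells, against 58.6% and 60.5% of the other cells and 53.6% and 54.4% of cluster 1. The lambda shares therefore rest on unlike fractions of the cells.

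V segment calls, by the same rule of 80% and at least 2 UMIs, were available for 210 and 288 cluster 5 cells for kappa. Igkv6-23 was called in 2.38% and 16.7% of them, against 1.59% and 8.54% of the other cells, and in 91.1% of cluster 7, which has cells in library 2 only. Igkv3-2 was called in 16.7% and 21.5%, against 18.9% and 30.3%. Ighv1-72, the heavy chain segment known for NP binding with lambda light chains, was called in 21.4% and 13.5% of 70 and 89 cluster 5 cells, against 22.4% and 10.5% of the other cells. Its intervals of 12.5 to 32.9% and 7.17 to 22.4% include the shares of the other cells. They cover counting error only and count each cell as independent, so they do not show that the shares are alike. V segments share sequence, so reads of related segments could be exchanged in the authors' counting.

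Clusters with the same 5 markers were found in the other tables of the series by the highest marker median, which fixes that these markers are high there. At day 7, in B220+ CD38- GL7hi cells of wild type mice given the same antigen, cluster 2 held 131 of 1012 cells (12.9%) and 541 of 2530 cells (21.4%) of libraries 1 and 2. In the chimaeras, irradiated hosts rebuilt with wild type bone marrow and sorted as at day 14, cluster 6 held 394 of 7314 cells (5.39%) with Ccl19Cre/+ Il4raf/f hosts and 453 of 8038 cells (5.64%) with Il4ra+/+ hosts. Ccl19-Cre acts in stromal cells, so the B cells of both kinds of chimaera are wild type by label. The tables were clustered separately, with other gates and depths, so the shares stand side by side without a test, and each kind of host has 1 library.

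At day 7, 509 of 5520 genes (9.22%) were higher in cluster 2 and 518 (9.38%) lower than in the other cells of the library. In the chimaeras, 592 of 5003 genes (11.8%) were higher in cluster 6 and 470 (9.39%) lower. At day 14, 12.2% of all measured genes were higher and 10.0% lower. Among the 4992 genes measured in both tables, 422 were higher at both days, which is 67.4% of the 626 of day 14 and 92.5% of the 456 of day 7. Lower at both days were 354, which is 74.5% of the 475 of day 14 and 73.8% of the 480 of day 7. With the chimaeras 4657 genes were measured in both tables. There 410 higher genes were shared, or 69.0% of the day 14 and 74.7% of the chimaera list, and 245 lower genes, or 53.0% and 60.0%. No gene was called in opposite directions in either pair. The clusters were matched by their markers, so neither the sharing nor the lack of opposite calls is independent support.

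Myc, which did not choose the clusters, had ratios of 2.41 and 1.76 in the day 7 libraries and of 1.61 and 2.06 in the KO-host and control-host chimaeras. Nucleolar genes were called higher in 33 of 33 cases at day 7 (median 1.14) and 32 of 32 in the chimaeras (median 1.05), and CD40 and NF-kB genes in 12 of 19 (median 1.001) and 12 of 18 (median 0.77). The markers Gnl3, in the nucleolar list, and Batf, in the CD40 and NF-kB list, helped to choose the clusters. Part of these counts was therefore fixed by the choice. Mxd4 had a mean ratio of -1.85 at day 7 and -1.74 in the chimaeras, and Klf2 -2.80 in the chimaeras, while at day 7 it lay under the minimum of 20 CPM. Polr1b, Pus7 and Trmt61a also lay under it in both tables. G2/M genes differed between the tables, with 20 of 20 called lower at day 7 (median -1.29) and 0 of 20 in the chimaeras (median -0.08). G2M calls were 5.34% and 9.24% of cluster 2 at day 7 and 31.0% and 26.05% of cluster 6 in the KO-host and control-host chimaeras.

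**Figure D5:**
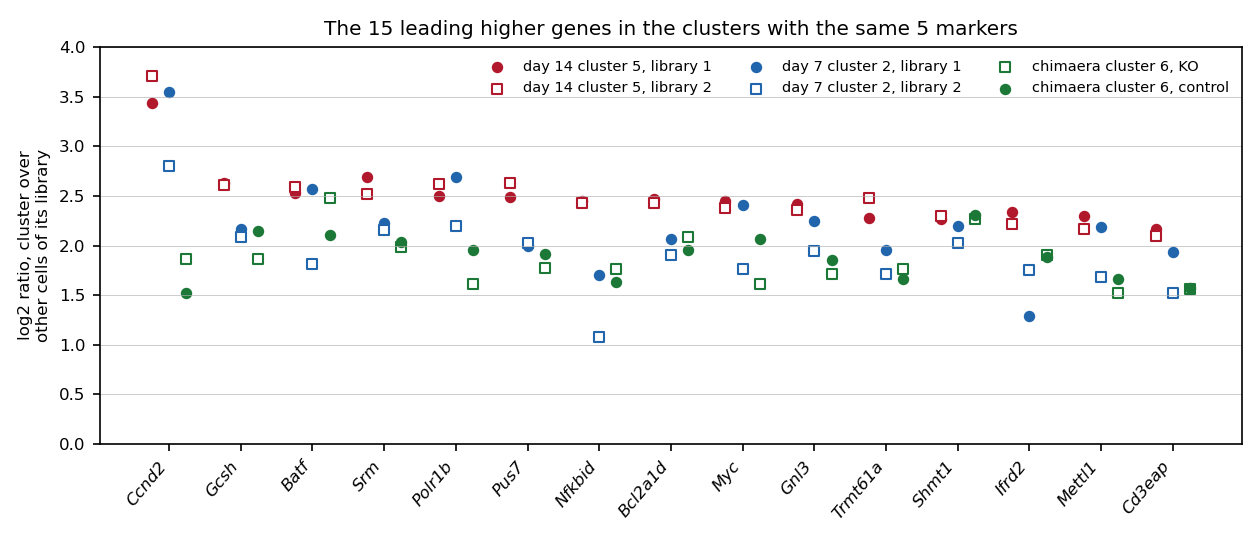
Log2 ratio of CPM, cluster over the other cells of its library, for the 15 leading higher genes of day 14 in cluster 5 at day 14, cluster 2 at day 7 and cluster 6 of the chimaeras, 1 symbol per library. All points lie above 1, and Ccnd2 spans from 3.44 and 3.71 at day 14 to 1.86 and 1.52 in the KO-host and control-host chimaeras. Ccnd2, Srm, Batf, Nfkbid and Gnl3 are the markers that chose the day 7 and chimaera clusters, so their height there was fixed by the choice. Polr1b, Pus7 and Trmt61a lie under the minimum of 20 CPM in both of those tables.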

How the data were processed

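Values in the deposited gene tables are raw UMI counts for every cell, whole numbers with no scaling. Per the submitters' processing notes, Cell Ranger, Seurat and mm10 were used, with no versions or settings. The deposited cell tables add library, phase, zone and cluster, and how those were made is not given in the sources used here. All deposited cells were kept. Counts were summed per library over cluster 5 and over the other cells, scaled to CPM by the total of the sum, and compared as log2 ratios. Genes with a mean of at least 20 CPM over the 4 sums were measured, and a sum of 0 would have been set to 0.5 counts. Named genes were the 15 in each direction with the largest smaller absolute ratio of the 2 libraries, without immunoglobulin, mitochondrial, ribosomal protein and predicted genes, plus members of 38 gene lists. Some genes named with their values within calls, the comparisons between calls within cluster 5, and the chain and V segment calls, were chosen after their values were seen. The cluster, its markers and the lists were chosen with earlier results of these data known. Lists share members, and some hold markers of the cluster. Shares carry exact Clopper-Pearson 95% intervals, which cover counting error only and count each cell as independent. Cells were thinned to 1000 UMIs with a fixed seed where shares of cells with a UMI are given.

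Doublets could not be told apart: the median doublet score was 0.30 in real cells and 0.32 in simulated doublets of each library, and a version without the 5% of cells with the highest score was an alternative only. Alternatives also covered the scaling (TMM of edgeR 4.0.16 and size factors of DESeq2 1.42.0, in R 4.3.3), the filter, the minimum ratio, the weighting of cells, the choice of other cells, and each library left out. Python 3.11.15 with numpy 2.4.6, scipy 1.17.1 and pandas 2.3.3 was used. Gene coordinates and promoter windows are of GRCm38, the assembly of mm10. Some genes that met the naming rule are not reported here.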

Additional observations from a re-analysis of the deposited data

How the results depend on the processing

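The counts of 740 genes higher in cluster 5 and 609 genes lower in cluster 5 stayed within 1.5 times under most of the 17 alternatives run. The exceptions were the filter and the minimum ratio: with a mean of at least 5 CPM 1006 genes were lower (1068 higher), with no filter on the mean 2980 were higher and 1872 lower, and at a log2 ratio of at least 1 there were 230 and 126. Leaving out 1 library gave 887 to 923 higher and 760 to 825 lower genes, a construction with 1 ratio in place of 2 to pass. The share of day 14 cells in cluster 5, 6.11% as a mean of libraries, ran from 5.73 to 6.48% with 1 library left out and was 12.9% among LZ-called cells, whose denominator is smaller. Cdkn3 turned to 0.92 and Mxd3 to 0.72 with only LZ-called cells as the other cells, and Cdkn3 to 0.19 with cells called LZ and G1 on both sides, and the cause was not tested. Both genes lay under the minimum of 20 CPM in the LZ-called other cells. The other 507 of 510 values of the 30 leading genes kept their sign. Of 663 list medians 28 changed sign, of which 2 belonged to a list with an absolute median of at least 0.5, the G2/M list at 1.71 and 0.77 under the same settings. The versions without the 5% of cells with the most UMIs (729 higher, 583 lower), without clusters 3, 7 and 10 (726 and 607) and with LZ and G1 calls on both sides (857 and 594) were added after seeing the data. No paired analysis was possible because the results come from no test: clusters are set by the genes compared, and each ratio is already the difference within a library.

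Depth limits single cells more than sums: at 1000 UMIs a gene near 100 CPM is missed in most cells. Both libraries carry the same gate and no label separates animals, so the spread between libraries is not shown to be biological.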
